A study of Homo sapiens with 2 samples.

Results

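The nuclear genes of the respiratory chain were examined in a map of nucleosome positions from ARPE-19 cells. They were taken as the protein-coding genes on chromosomes 1-22 of the GENCODE release 44 annotation whose symbols begin with NDUFA, NDUFB, NDUFC, NDUFS, NDUFV, UQCR, COX4 to COX8 or ATP5, together with SDHA, SDHB, SDHC and SDHD. The rule found 95 genes of 19111, and it used no measured value. A start site from the MANE Select transcript, the single reference transcript agreed for a gene by the main annotation groups, was present for 93 of them. The other 2, the readthrough genes ATP5MF-PTCD1 and NDUFC2-KCTD14, had none and were not profiled. Of the 93 start sites, 55 lay inside a CpG island and 38 outside. Across all genes, 10407 MANE Select start sites lay inside an island, 10352 of them belonging to other genes.

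ARPE-19 is an established cell line of human retinal pigment epithelium. The labels list 2 samples, batches 1 and 2, of untreated interphase cells in normal culture with serum, so that the study has a single group and no control. Chromatin was digested with micrococcal nuclease (MNase), which cuts between nucleosomes, and fragments of about 150 bp were sequenced. The authors deposited 1 list of point positions that names neither batch, so the spread between batches and the read depth are unknown, and no p-value is given. Intervals are 95% counting intervals (exact Poisson for densities, exact conditional for ratios, Wilson for shares); they cover counting error only, and genes are not replicates. The map has no expression values, so neither the cell type's markers nor the activity of any gene could be checked.

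The respiratory chain sits in the inner mitochondrial membrane. Complexes I (NADH dehydrogenase) and II (succinate dehydrogenase) pass electrons to ubiquinone, complex III (the cytochrome bc1 complex) passes them to cytochrome c, and complex IV (cytochrome c oxidase) passes them to oxygen. Complex V, the ATP synthase, uses the proton gradient built by complexes I, III and IV to make ATP. A few core subunits are encoded by mitochondrial DNA and the others in the nucleus. The chain is needed in nearly all cells, among them the retinal pigment epithelium, which relies heavily on oxidative metabolism. The symbol rule does not take every nuclear subunit, since CYC1 of complex III and genes on the X chromosome are left out. It does take some tissue-restricted forms and a retrocopy. At an active promoter, a stretch around the start site is usually free of nucleosomes, and the first nucleosome downstream of it, called +1, is held at a nearly fixed distance, followed by +2 and so on.

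Distances below are in the direction of transcription, with the start base at 0. The gap was counted from -200 to +50 bp, the +1 window is the next 175 bp downstream, the +2 window the 175 bp after that (to +400 bp), and the window of the last upstream nucleosome, -1, the 175 bp before the gap. Promoter sequence of 3 members (hg38, bases -200 to -1, gene strand, 5′ to 3′) is shown first, since these bases make up most of the gap and held no position in any of the 3. ATP5PB (chr1:111449264-111449463, plus strand) was followed by positions at +130 and +316 bp, COX5B (chr2:97645862-97646061, plus strand) by 1 at +139 bp and ATP5F1B (chr12:56645985-56646184, minus strand) by 1 at +116 bp and another at +968 bp. Capitals mark letters that match an SP1 (GGGCGG), ETS (CCGGAAG) or CCAAT motif on either strand and lie wholly within the bases shown; matches that run past either end are left in lower case.
ATP5PB: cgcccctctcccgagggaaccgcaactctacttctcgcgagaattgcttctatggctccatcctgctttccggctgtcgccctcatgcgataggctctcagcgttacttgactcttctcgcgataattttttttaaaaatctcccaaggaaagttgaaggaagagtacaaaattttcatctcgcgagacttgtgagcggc
COX5B: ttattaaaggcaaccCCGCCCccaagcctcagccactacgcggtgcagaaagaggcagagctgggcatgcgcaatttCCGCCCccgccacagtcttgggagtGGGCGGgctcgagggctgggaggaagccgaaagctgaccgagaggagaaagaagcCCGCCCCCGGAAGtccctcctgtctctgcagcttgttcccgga
ATP5F1B: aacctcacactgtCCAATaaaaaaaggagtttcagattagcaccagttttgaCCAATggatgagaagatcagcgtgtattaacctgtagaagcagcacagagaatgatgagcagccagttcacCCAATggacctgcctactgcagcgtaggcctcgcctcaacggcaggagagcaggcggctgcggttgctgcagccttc

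The main feature of the respiratory chain genes was the +1 nucleosome. Of the 55 island starts, 29 had a position in the +1 window, or 52.7% (39.8 to 65.3%), where 17.7% of all island starts had one. The density there was 3.12 positions per kb (2.10 to 4.45, 30 positions), against 1.07 per kb (1.02 to 1.12, 1935 positions) at the other island starts. The ratio of the densities was 2.92 (1.96 to 4.18). Dividing both by the density that their GC content predicts, from the genome-wide density of sequence with the same GC content, gave a ratio of 2.07 (1.39 to 2.97). GC content differed between the sets: the +1 window had a median of 69.7% GC at the members (quartiles 64.6 and 73.1%) and 72.6% at the other island starts (66.9 and 77.1%). The medians were further apart in the gap (64.5 against 70.9%) and in the +2 window (65.7 against 70.3%).

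The gap itself was nearly empty. COX7A2L, a relative of the COX7A2 subunit that takes part in joining respiratory complexes into supercomplexes, had a position at -149 bp, and NDUFB9, an accessory subunit of complex I, had one at -169 bp. The remaining 53 island members had none. The share with a position in the gap was 3.64% (1.00 to 12.3%), where 8.2% of all island starts had one. In density this was 0.145 per kb against 0.339 per kb, a ratio of 0.427 with an interval of 0.0517 to 1.55, so a difference between members and other island starts in the gap was not detectable with 2 positions. With the GC expectation the ratio was 0.271 (0.0328 to 0.983). Set against their own flanks, 1000 to 2000 bp from the start on either side, the members' gap had 0.261 times the density (0.0309 to 0.985). This too rests on 2 positions. The upper bound was above 1 with close positions merged (1.08), canonical starts (1.18) and a gap from -150 to 0 bp (1.26). It was also above 1 without NDUFAF and readthrough genes (1.06), and below 1 with looser islands (0.811). Density in the +1 window was 21.5 times that in the gap (5.46 to 186), where at the other island starts this ratio was 3.15 (2.91 to 3.42). At island starts of mitochondrial and cytosolic ribosomal protein genes it was 9.32 (3.23 to 36.8) and 7.17 (2.70 to 24.0). Both intervals overlap that of the members.

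The +2 window held 9 positions at 9 island members, 16.4% of them (8.86 to 28.3%), where 7.06% of all island starts had one. The shares at mitochondrial and cytosolic ribosomal protein genes were 14.6% (7.25 to 27.2%) and 12.1% (5.97 to 22.9%). The density ratio of members to the other island starts was 2.25 (1.02 to 4.29). With the GC expectation it was 1.52 (0.692 to 2.90), an interval that includes 1. Upstream, the -1 window held 9 positions as well, at 16.4% of island members, where 16.8% of all island starts had one, and the ratio was 0.919 (0.419 to 1.75). The whole stretch from -1000 to +1000 bp did not stand out: it had 0.736 positions per kb at the members and 0.662 at the other island starts, a ratio of 1.11 (0.883 to 1.38). At least 1 position lay there at 44 of the 55 members, or 80%, where 68.9% of all island starts had one. Further from the start the members were sparser downstream. From the end of the +2 window to +1000 bp the ratio was 0.512 (0.234 to 0.973). In the downstream flank it was 0.615 (0.390 to 0.924), and in both flanks together 0.719 (0.549 to 0.923). Upstream the intervals included 1, with 0.830 (0.520 to 1.26) from -1000 bp to the -1 window and 0.800 (0.566 to 1.10) in the upstream flank. Sparse flanks were not particular to the members. Both flanks held 0.555 positions per kb at the members, and 0.469 and 0.319 at island starts of mitochondrial and cytosolic ribosomal protein genes.

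**Figure D1:**
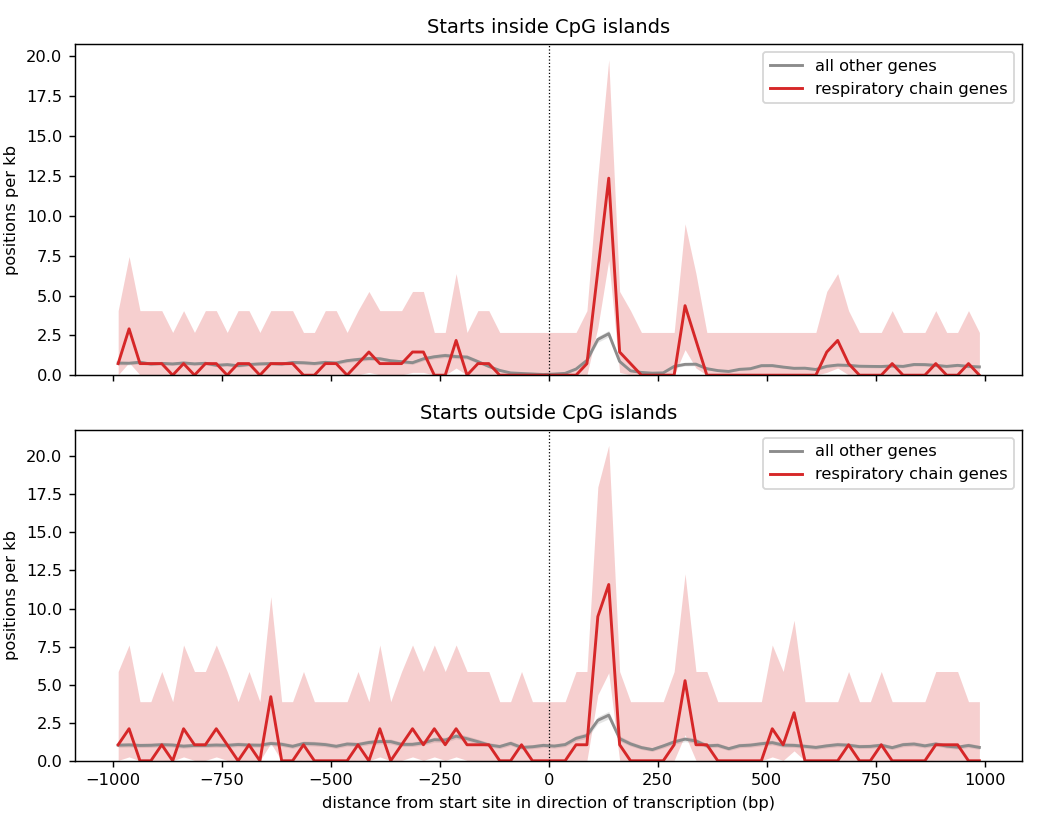
Positions per kb (y axis, 25-bp bins) against distance from the start site in bp (x axis), for starts inside CpG islands (top) and outside (bottom); red is the respiratory chain (55 and 38 starts), grey all other genes (10352 and 7746 starts), and bands are exact 95% Poisson intervals. The members' peak from 125 to 150 bp reaches 12.4 per kb inside islands, against 2.60 at other genes, and 11.6 outside, and a smaller peak follows from 300 to 325 bp.

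The members' +1 positions lay within a narrow range. Inside islands they ran from +99 to +177 bp with a median of +130 bp (quartiles 123 and 139 bp, 30 positions), and 26 of the 30 fell from +100 to +150 bp (86.7%, 70.3 to 94.7%). At the other island starts 65.5% of the +1 positions fell in that range (63.3 to 67.6%), with quartiles of 109 and 142 bp. The narrow range was not particular to the members. At island starts of mitochondrial ribosomal protein genes the quartiles were 120 and 135 bp, and at those of cytosolic ribosomal protein genes 119 and 135 bp. In 25-bp bins the members' density was highest from 125 to 150 bp, at 12.4 per kb (17 positions), where other island starts had 2.60 per kb. A second maximum of 4.36 per kb lay from 300 to 325 bp. Positions in the +1 and +2 windows of the same gene were 186 bp apart in the median at island members (3 pairs, 185 to 191 bp) and 183 bp at members outside islands (6 pairs, 167 to 196 bp).

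**Figure D2:**
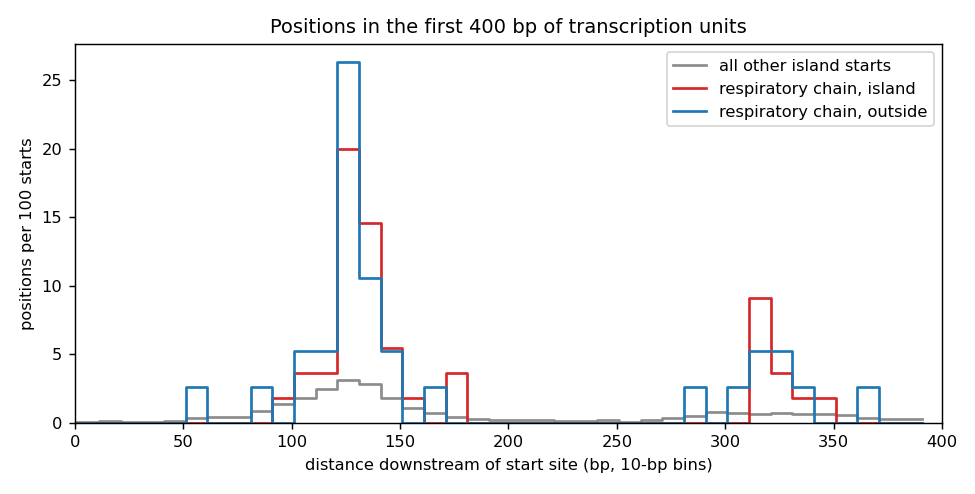
Positions per 100 starts (y axis) in 10-bp bins of distance downstream of the start site (x axis, bp), for respiratory chain genes inside islands (red, 55 starts) and outside (blue, 38 starts) and for the other island starts (grey). The red line peaks from 121 to 130 bp at 20 per 100 starts, is at 0 from 181 to 310 bp and reaches 9.09 from 311 to 320 bp, and the blue line peaks in the same first bin at 26.3.

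Of the 38 members that start outside islands, 22 had a position in the +1 window (57.9%, 42.2 to 72.1%), where 27.6% of all starts outside islands had one. Density was 3.46 per kb against 1.74 at the other starts outside islands, a ratio of 1.98 (1.25 to 2.98). The gap held 4 positions, at NDUFB3 (-146 bp), NDUFB6 (-172 bp), NDUFA4L2 (-74 bp) and UQCRC2 (-181 bp), or 10.5% of these members (4.17 to 24.1%), where 22.2% of all starts outside islands had one; the density ratio was 0.394 (0.107 to 1.01). For the +2 window the shares were 18.4% of members (9.22 to 33.4%) and 17.5% of all starts outside islands, and the density ratio was 1.10 (0.473 to 2.17). Members inside and outside islands were not tested against each other. In the -1 window the density ratio was 1.06 (0.483 to 2.01), and 9 of the 38 members had a position there (23.7%), where 20.4% of all starts outside islands had one. Within 1000 bp of the start 31 of the 38 had a position, where 80% of all starts outside islands had one. The flanks were sparse here too, with a ratio of 0.508 (0.361 to 0.695). Densities of starts outside islands were not among the comparisons planned.

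By complex, the largest group was complex I, the entry point for electrons from NADH, with 37 profiled genes beside its assembly factors. Among its 23 island starts 16 had a +1 position (69.6%, 49.1 to 84.4%), where 17.7% of all island starts had one. NDUFV1, which binds the flavin, had positions at -478, +130 and +315 bp. Among other subunits that carry iron-sulfur clusters, NDUFV2 had its +1 position at +135 bp, NDUFS1 at +123 bp and NDUFS8 at +106 bp. NDUFS3, a core subunit without a cluster, had one at +126 bp. NDUFS7, which carries the last cluster before ubiquinone, had no position from -1000 to +1000 bp. Outside islands NDUFS4, an accessory subunit of the NADH-oxidising arm, had positions at -330, +136 and +319 bp. This gene shows the full series of -1, +1 and +2 with an empty gap.

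Accessory subunits of complex I were of both kinds. Island starts with a +1 position were those of NDUFA3 (+125 bp), NDUFA7 (+139 bp), NDUFA10 (+134 bp), NDUFA13 (+137 bp), NDUFAB1 (+143 bp), NDUFB2 (+121 bp), NDUFB8 (+124 bp), NDUFB9 (+177 bp), NDUFC2 (+123 bp), NDUFS6 (+134 bp) and NDUFV3 (+128 bp). NDUFAB1 is the mitochondrial acyl carrier protein, which serves fatty acid synthesis as well. NDUFA2 and NDUFA6 had positions within 1000 bp of the start but none in the +1 window, NDUFA6 having 1 in the +2 window at +325 bp. NDUFA11, NDUFB1, NDUFB4 and NDUFB10 had no position from -1000 to +1000 bp. Outside islands NDUFA8, NDUFA9, NDUFB3, NDUFB5, NDUFB6, NDUFB7 and NDUFS5 had a +1 position between +107 and +132 bp, while NDUFA5 and NDUFA12 had none. NDUFC1 and NDUFA4 had no position within 1000 bp. NDUFA4 is now assigned to complex IV, but by its symbol it is counted here with complex I. The same holds for the count of its relative NDUFA4L2, a gene induced by hypoxia. NDUFA4L2 had the shortest stretch free of positions around its start of all members, 158 bp, with positions at -259, -74, +84 and +108 bp.

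The complex I assembly factors, proteins that help to build the complex and are not part of it, matched the symbol rule through the letters NDUFAF. None of the 8 had a position in the +1 window (0 of 7 island starts, 0 to 35.4%), where 17.7% of all island starts had one, so at 7 genes a share of 0 lies within counting error of that of all island starts. NDUFAF2 had a position at +324 bp, and the nearest downstream position of NDUFAF7 was at +676 bp and of NDUFAF4 at +895 bp. NDUFAF5 and NDUFAF6 had none within 1000 bp. NDUFAF1 lay 15385 and 27394 bp from the nearest positions upstream and downstream, the longest free stretch of any member, in a part of chromosome 15 with 0.0930 positions per kb over 1 Mb around the start. Without the assembly factors 29 of 48 island members had a +1 position (60.4%), and the density ratio to the other island starts was 3.34 (2.25 to 4.79). Of the other complex I assembly genes listed beside the members, ACAD9 (+113 bp) and FOXRED1 (+106 bp) had an island start, and both had a +1 position.

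Complex II, which also belongs to the citric acid cycle, has 4 subunits. SDHB, the iron-sulfur subunit, had a single position within 1000 bp, at +123 bp. The catalytic subunit SDHA had none in any of the counted windows and 1 at +788 bp; no position was found for 11871 bp upstream of its start. For the membrane anchors, SDHC had positions at -817 and +931 bp and SDHD had none within 1000 bp. Complex III had a +1 position at 6 of 9 starts (66.7%, 35.4 to 87.9%), where 21.9% of all MANE Select starts had one. These were UQCRB (+126 bp), UQCRC2 (+161 bp), UQCRH (+141 bp), UQCRQ (+131 bp), UQCR11 (+125 bp) and UQCR10, which had a pair at +99 and +147 bp, closer together than the DNA length that 1 nucleosome covers. The core subunit UQCRC1 had its first position at +338 bp. The Rieske iron-sulfur subunit UQCRFS1 had none within 1000 bp, and UQCRHL, a retrocopy of UQCRH, had 1 at -650 bp. The 9 starts include UQCRHL and leave out the subunit CYC1, which is not a member and had a position at +141 bp.

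Complex IV had a +1 position at 7 of 16 starts (43.8%, 23.1 to 66.8%), where 21.9% of all MANE Select starts had one. Several of its subunits come as a form found in most tissues and a form restricted to muscle, lung or testis. Among 5 such pairs, the +1 window (occupied at 21.9% of all MANE Select starts, as above) held a position at 3 of the broadly expressed genes, COX4I1 (+110 bp), COX6A1 (+112 bp) and COX6B1 (+129 bp). Of the others, COX8A had a position at +317 bp in the +2 window, and COX7A2 had only 1, at -318 bp. Their tissue-restricted partners COX4I2, COX6A2, COX6B2, COX7A1 and COX8C had no position in the -1, gap, +1 or +2 window. The distances of their nearest positions within 1000 bp were +905 bp for COX4I2, -960 bp for COX6A2 and -428 bp for COX7A1, while COX6B2 and COX8C had none. COX7B2, a testis form whose partner gene is on the X chromosome and was not profiled, had a position at +52 bp, at the very edge of the +1 window. Over all MANE Select starts the -1, gap, +1 and +2 windows held a position at 18.3, 14.2, 21.9 and 11.5%. Each window is therefore empty at most starts, and the share empty in all of them was not counted. With 5 pairs the counts above are a description, and no contrast between the forms is drawn. The other +1 positions of complex IV were at COX5A (+174 bp), COX5B (+139 bp) and COX7A2L (+152 bp). COX6C had no position within 1000 bp and COX7C had 2, both upstream.

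Complex V had a +1 position at 11 of 19 starts (57.9%, 36.3 to 76.9%) and no position in the gap of any (0 to 16.8%), where 21.9% and 14.2% of all MANE Select starts had one. In the catalytic head, ATP5F1A had its +1 position at +116 bp and ATP5F1B at +116 bp, while ATP5F1C, the central stalk subunit, had its first position at +314 bp. The smaller stalk subunits ATP5F1D and ATP5F1E had none within 1000 bp, and the free stretch around the start of ATP5F1E was 12652 bp. All 3 genes for the subunit of the rotating ring, which encode the same mature protein, had a +1 position: ATP5MC1 at +125 bp, ATP5MC2 at +121 bp and ATP5MC3 at +141 bp. In the peripheral stalk, ATP5PB had positions at +130 and +316 bp, ATP5PD at +133 bp and ATP5PO at +140, +323 and +366 bp, and ATP5PF had its first position at +341 bp. ATP5IF1, which inhibits the enzyme when the gradient fails, had one at +123 bp. ATP5MF (+142 bp) and ATP5MJ (+127 and +323 bp) had it too, while ATP5MG had no position and ATP5ME, ATP5MK and ATP5MGL had none from -200 to +400 bp.

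**Figure D3:**
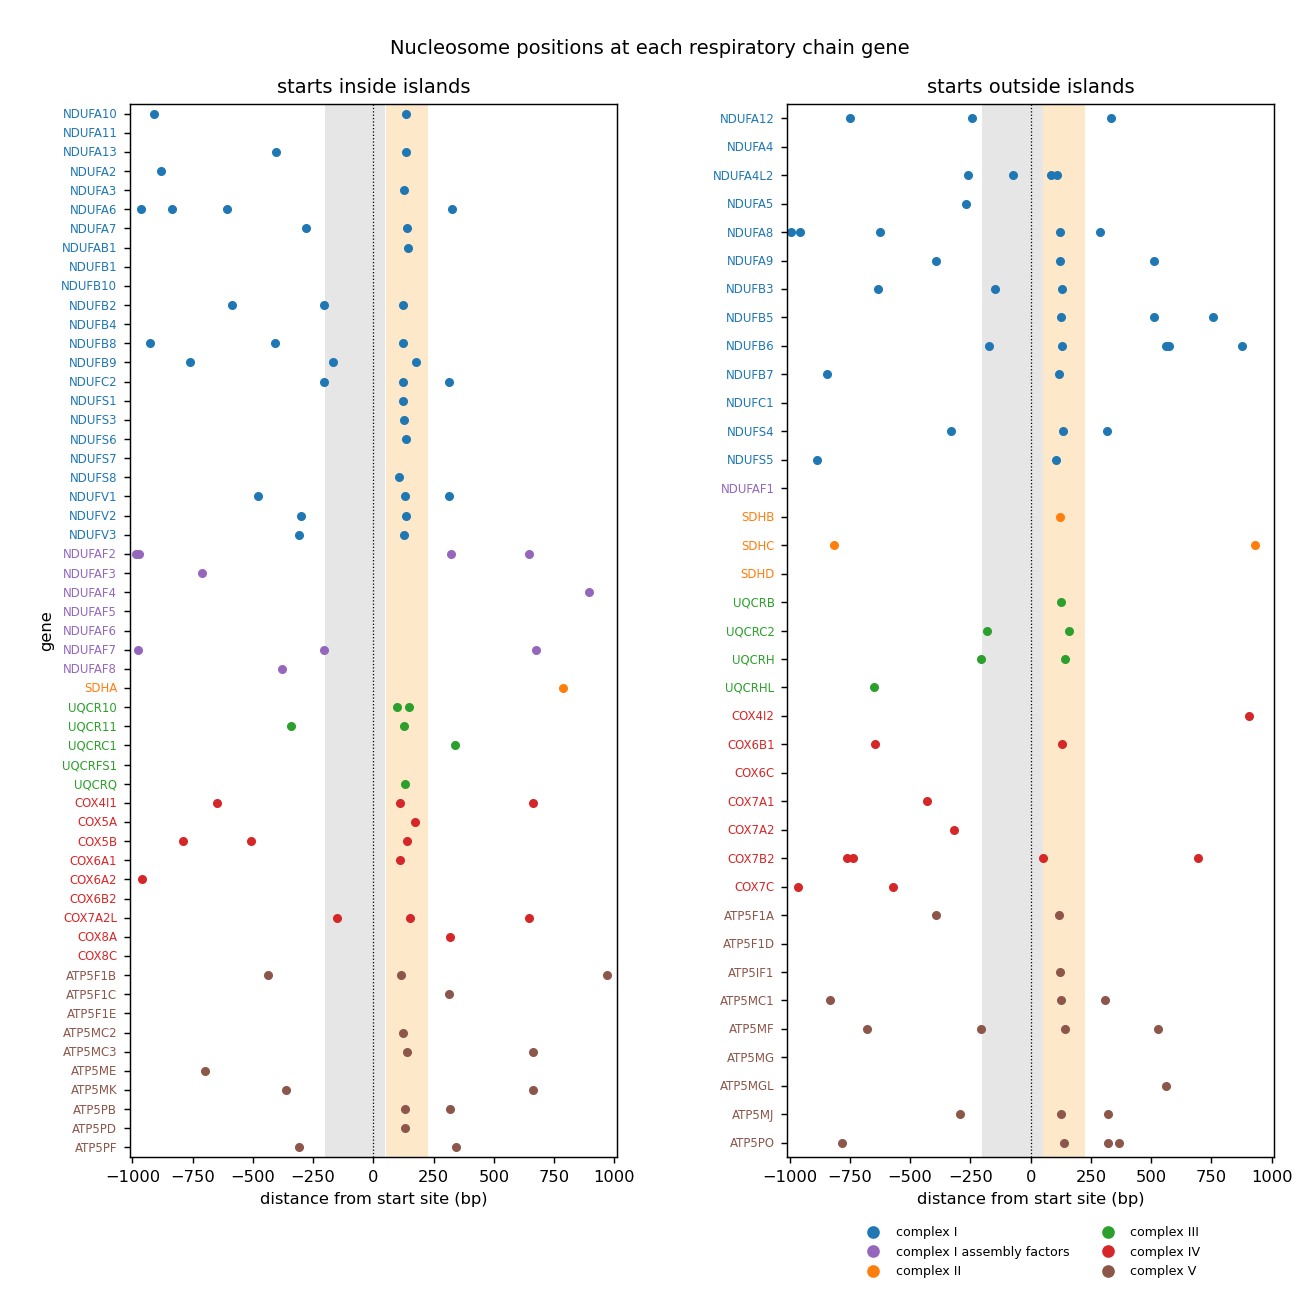
Positions from -1000 to +1000 bp (x axis, distance from the start site) at the respiratory chain genes except 1 that is not drawn (y axis, 1 row per drawn gene, coloured by complex), inside islands on the left and outside on the right; grey shading is the gap and orange the +1 window. Dots line up in the orange band in most rows of complexes I, III and V, the 8 NDUFAF rows have no dot there, and 18 rows are empty.

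Members that carried the +1 and the +2 position with an empty gap inside an island were NDUFV1, NDUFC2 (-203, +123 and +314 bp) and ATP5PB, 3 of 55, where 2.23% of all island starts had this series. With starts outside islands it was 9 of 93, where 3.32% of all MANE Select starts had it. No position from -1000 to +1000 bp was found at 18 of the 93 members, 11 of them island starts, where 31.1% of all island starts had none. The other 75 had at least 1, where 73.6% of all MANE Select starts did. A member had at most 5 positions in these 2001 bp, and this was reached by NDUFA8 and NDUFB6. An absent position is a position that was not called and, with the depth unknown, does not show that no nucleosome was there.

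The comparison with other families bears on how particular the +1 nucleosome is to these genes. Mitochondrial ribosomal protein genes, whose products translate the mitochondrially encoded subunits, had a +1 position at 25 of 48 island starts (52.1%, 38.3 to 65.5%). Cytosolic ribosomal protein genes had one at 25 of 58 (43.1%, 31.2 to 55.9%). The density ratio of the respiratory chain to the former was 1.01 (0.576 to 1.77) and to the latter 1.27 (0.719 to 2.24), so the families were not distinguishable at these counts, and their intervals do not show them to be equal. A list of 61 further genes of the pathway (electron carriers, assembly factors and regulators), none of which is a member, had 45 island starts, of which 19 had a +1 position (42.2%, 29.0 to 56.7%) and 2 a position in the gap. Within it, 8 of 15 complex IV assembly genes had one, among them SCO1 (+132 bp) and SCO2 (+119 bp), copper carriers for the oxidase, and 1 of 6 complex III assembly genes did (16.7%), where 17.7% of all island starts had one. Of the 11 regulators with an island start 3 had one: TFAM (+117 bp) and POLRMT (+115 bp), which transcribe mitochondrial DNA together, and TFB2M (+153 bp). Of the transcription factors usually named for respiratory genes, NRF1, ESRRA and YY1 had no position within 1000 bp, as had 31.1% of all island starts, while GABPA had 2, the first downstream at +242 bp, and its partner GABPB1 had 5.

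**Figure D4:**
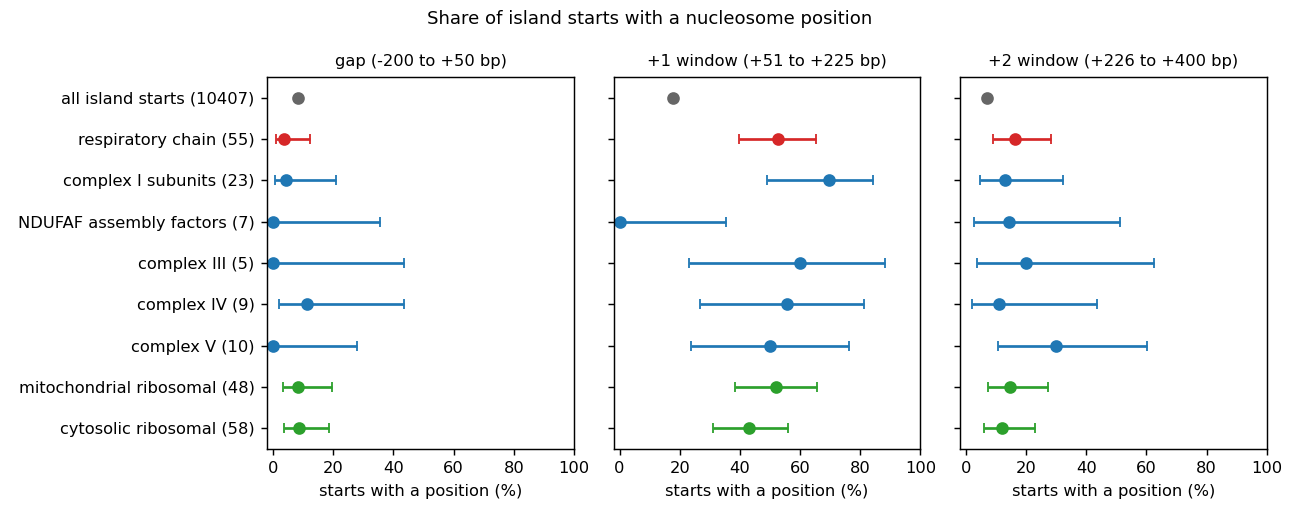
Share of island starts (x axis, %, with 95% Wilson intervals) that had a position in the gap, the +1 and the +2 window, for all island starts (grey), the respiratory chain (red), its groups (blue; complex II, with 1 island start, is left out) and both ribosomal protein families (green); numbers of starts are in brackets. In the +1 window the respiratory chain (52.7%) and the ribosomal families (52.1 and 43.1%) lie above all island starts (17.7%), and the NDUFAF genes are at 0.

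Members shared other features that the rule did not use. Their first exons were short, with a median of 116 bp inside islands (quartiles 71.5 and 166 bp) against 210 bp at the other island starts (122 and 381 bp) and 115 bp at those of mitochondrial ribosomal protein genes. Inside islands the +1 position lay in the first intron at 21 of 30 and in the coding part of the first exon at 9 of 30, and never in the 5′ UTR. At the other island starts 41.7% of the +1 positions lay in the 5′ UTR (39.5 to 43.9%) and 35.3% in an intron. Over all 53 positions in members' +1 windows, inside and outside islands, the end of the first exon was within 73 bp of the position in 42, that is inside the DNA a nucleosome centred there would cover. For island members alone this was 23 of 30, and for the other island starts 888 of 1903.

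The stretch centred on the +1 position and reaching 73 bp to either side, the length wrapped around a nucleosome, is shown for a subunit of each complex and a second one of complex IV (hg38, gene strand, 5′ to 3′) to make this arrangement visible. Capitals mark the coding bases of the first exon, and the lower-case letters that follow are the first intron, which begins with gt in each. The stretches are chr5:1801468-1801614 (plus strand, +134 bp) for NDUFS6, chr1:17053836-17053982 (minus strand, +123 bp) for SDHB, chr16:21953449-21953595 (plus strand, +161 bp) for UQCRC2, chr12:120438152-120438298 (plus strand, +112 bp) for COX6A1, chr2:97646128-97646274 (plus strand, +139 bp) for COX5B and chr12:56645795-56645941 (minus strand, +116 bp) for ATP5F1B.
NDUFS6: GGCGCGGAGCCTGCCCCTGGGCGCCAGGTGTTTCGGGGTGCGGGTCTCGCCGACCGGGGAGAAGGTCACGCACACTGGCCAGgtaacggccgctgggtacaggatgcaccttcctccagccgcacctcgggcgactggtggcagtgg
SDHB: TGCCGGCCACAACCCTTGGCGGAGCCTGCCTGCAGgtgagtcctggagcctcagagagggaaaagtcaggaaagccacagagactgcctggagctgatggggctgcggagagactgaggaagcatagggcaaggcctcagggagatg
UQCRC2: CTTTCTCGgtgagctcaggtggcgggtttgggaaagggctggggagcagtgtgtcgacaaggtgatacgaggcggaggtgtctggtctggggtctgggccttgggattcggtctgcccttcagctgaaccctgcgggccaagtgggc
COX6A1: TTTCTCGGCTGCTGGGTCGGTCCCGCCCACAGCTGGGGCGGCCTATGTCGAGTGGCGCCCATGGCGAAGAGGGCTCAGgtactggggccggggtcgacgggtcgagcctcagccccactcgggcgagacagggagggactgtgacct
COX5B: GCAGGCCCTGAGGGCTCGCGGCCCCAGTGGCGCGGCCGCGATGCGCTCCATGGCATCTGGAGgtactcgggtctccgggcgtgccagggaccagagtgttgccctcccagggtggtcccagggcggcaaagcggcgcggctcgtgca
ATP5F1B: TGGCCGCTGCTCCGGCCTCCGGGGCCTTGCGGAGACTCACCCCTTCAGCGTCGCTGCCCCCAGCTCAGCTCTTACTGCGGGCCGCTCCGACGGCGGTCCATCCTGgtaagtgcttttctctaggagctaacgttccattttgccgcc

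These 6 stretches hold 82 coding bases in NDUFS6, 35 in SDHB, 8 in UQCRC2, 78 in COX6A1, 62 in COX5B and 105 in ATP5F1B. Of the 53 such stretches at members, 34 held coding and intron bases at once. This was not counted at other starts, so it does not show an arrangement particular to the members. The GC content of the 53 stretches had a median of 66.7% (quartiles 61.9 and 70.1%).

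Many members also had a nearby start of a gene read in the other direction. Such a start was counted on either side of the member's own, so the count is not limited to divergent promoters. A MANE Select start on the opposite strand within 1000 bp was found at 21 of 55 island members (38.2%, 26.5 to 51.4%) and at 13.2% of the other island starts (12.6 to 13.9%); for mitochondrial ribosomal protein genes the share was 35.4% (23.4 to 49.6%). Examples were NDUFA7 with the ribosomal protein gene RPS28 (121 bp apart), ATP5PF with GABPA, which encodes a transcription factor for respiratory genes (68 bp), and COX4I1 with EMC8 (151 bp). The +1 position was present at 10 of the 21 members with such a partner (47.6%, 28.3 to 67.6%) and at 19 of the 34 without (55.9%, 39.5 to 71.1%). At the other island starts the shares were 31.6% with a partner and 15.4% without. Among starts without a partner the +1 density ratio of members to others was 3.41 (2.05 to 5.34). With a partner the +1 density was 2.99 per kb at members (1.49 to 5.36, 11 positions) and 1.93 at the others (1.76 to 2.12). The members' interval there includes the others' value, so no difference was detectable among starts with a partner. The members' islands were shorter, with a median of 851 bp (quartiles 703.5 and 1202 bp) against 1023 bp (756 and 1437 bp). They reached a median of 434 bp past the start (343.5 and 543 bp) against 586 bp (409 and 853 bp). At mitochondrial ribosomal protein genes these medians were 860 and 491.5 bp.

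Motifs were searched on both strands from -250 to +49 bp of each start, and a match is a run of letters, not a measured binding site. The motif of YY1 (AAGATGGC) matched at 9 of 55 island members (16.4%, 8.86 to 28.3%) and at 4.74% of the other island starts, and 4.12% of all MANE Select starts had it. Among all 93 members it had 16 matches in 16 genes, of which 13 began from 0 to +49 bp. In 12 of the 16 its ATG was the annotated start codon, so that the match overlaps the first codons of the protein. At the other island starts 332 of 508 matches began from 0 to +49 bp and 197 of 508 had their ATG at the start codon. Examples are given as 30 bases on the gene strand (hg38), with the 8 matching letters in capitals: NDUFS4 at chr5:53560649-53560678 (plus strand), NDUFA9 at chr12:4649113-4649142 (plus), SDHB at chr1:17054004-17054033 (minus), UQCRC1 at chr3:48609605-48609634 (minus) and ATP5PO at chr21:33915748-33915777 (minus).
NDUFS4: ttgcctgcagcAAGATGGCggcggtgtcaa
NDUFA9: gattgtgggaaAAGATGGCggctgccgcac
SDHB: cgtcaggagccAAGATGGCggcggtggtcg
UQCRC1: actgcagctggAAGATGGCggcgtccgtgg
ATP5PO: ccgcccgggagAAGATGGCtgccccagcag

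In 4 of these 5 genes a +1 position followed, at +136, +122, +123 and +140 bp in NDUFS4, NDUFA9, SDHB and ATP5PO, and UQCRC1 had its first position at +338 bp. Over all island members, however, a +1 position was found at 4 of the 9 with a YY1 match and at 25 of the 46 without. The centres of the matches lay at least 98.5 bp from the nearest position.

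The ETS motif (CCGGAAG), bound by GABPA and related factors, matched at 16 of 55 island members (29.1%, 18.8 to 42.1%) and at 17.6% of the other island starts. It was present in COX4I1, COX5B, COX6A1 and COX8A among others, and 10 of the 16 members that had it had a +1 position, as had 19 of the 39 without. None of the 30 ETS matches with a position in reach (2000 bp of the start) lay within 73 bp of one, and the smallest distance was 105 bp. For SP1 2 of 76 matches lay within 73 bp of a position (smallest distance 28.5 bp) and for the CCAAT box 3 of 52 (41 bp). Most of the searched bases lie in the gap, which held few positions. For SP1 (GGGCGG), a GC-box factor, 37 of 55 island members had a match (67.3%, 54.1 to 78.2%) and 83.8% of the other island starts. The palindrome of NRF1 (GCGCA directly followed by TGCGC) matched at 3 of 55, ATP5F1C, NDUFB4 and NDUFAF5 (5.45%, 1.87 to 14.9%), and at 2.41% of the other island starts; outside islands it matched at NDUFA8 and SDHD. The CCAAT box matched at 34.5 and 34.1%, CREB (TGACGTCA) at 5.45 and 3.43%, TATAAA at 5.45 and 4.14%, and ESRRA (TCAAGGTCA) at 1 island member, ATP5MC3, and 0.0580% of the others. The SP1 and ETS letters can overlap, as they adjoin in the COX5B promoter shown above.

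**Figure D5:**
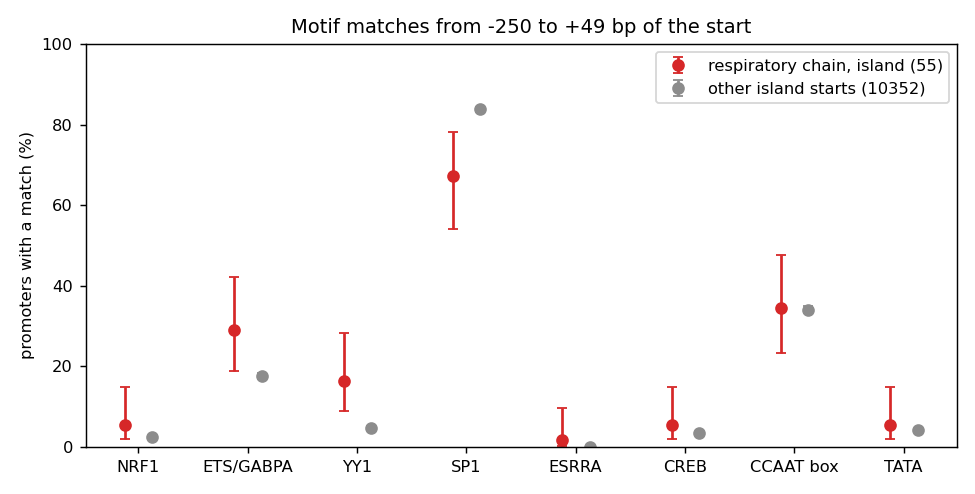
Share of promoters with a motif match from -250 to +49 bp of the start (y axis, %, with 95% Wilson intervals) for 8 motifs (x axis), at the 55 island members (red) and the 10352 other island starts (grey). The red interval lies above the grey point for YY1, ETS/GABPA and ESRRA, and below it for SP1.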

How the data were processed

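MNase-seq was done on 2 samples of ARPE-19 cells, digested for 5 min at 37 °C per the labels' protocols. The authors deposited 1 list of 1-bp positions with no score, height or sample name; per its header it holds chromosome, start and end. The submitters' processing notes name Bowtie2 and the builds hg38 and GRCh38. The caller, its threshold, the fragment filter and any pooling of the batches are not given in the sources used here. Of 2634347 rows, 2558490 distinct positions on chromosomes 1-22 were used (0.928 per kb over 2756 Mb of determined sequence); none lay past the end of its chromosome or on an undetermined base.

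Start sites, exons and coding parts came from GENCODE 44 on hg38. CpG islands were computed from the hg38 sequence (score +17 for a CpG and -1 otherwise, over 500 bp, at least 55% GC, observed to expected CpG ratio over 0.65). Counting was checked on simulated data: at 10000 simulated starts with a true +1 density ratio of 3, the ratio obtained was 2.82 (2.32 to 3.41). The GC expectation used 2% bins of the 200 bp around each base. Python 3.11.15, numpy 2.4.6, scipy 1.17.1, pandas 2.3.3, numba 0.67.0 and matplotlib 3.10.9 were used. Members, lists, windows and tests were chosen with earlier results of these data known. Genes were named by role in the complex, by tissue form, by any position in the gap, by the fullest and emptiest stretches, and when outside islands; the other members and the pathway genes given by name were chosen after their values were seen. Alternatives were other denominators, starts, islands, windows and sets of genes. One member is counted in every total but is not reported here by name, nor drawn in the map of positions by gene.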

Additional observations from a re-analysis of the deposited data

How the results depend on the processing

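Over 10 results, 73 alternative values were computed, and all 73 lay within the 95% interval (for the median distance, the quartiles) of the value reported. The alternatives reuse most of the same positions and several of these intervals are wide, so this is a weak check. The +1 density ratio of 2.92 ranged from 2.07 with the GC expectation to 3.41 without starts that have an opposite-strand partner within 1000 bp. Its interval lay above 1 in 10 of 10 alternatives. One of these, keeping only starts with a position in the flanks, was added after the data were seen and gave 3.38. The interval of the +2 ratio lay above 1 in 4 of 9 alternatives, and with that added setting the ratio was 1.37 (0.281 to 4.02). The gap ratio ranged from 0.271 with the GC expectation to 0.619 with canonical starts, and rests on 1 to 3 positions. Its interval lay below 1 only with the GC expectation (0.0328 to 0.983). For the members' gap against their own flanks, the upper bound ran from 0.811 with looser islands to 1.26 with the narrower gap. The share of island members with a +1 position ranged from 52.7 to 60.4%. No paired analysis was possible because the list names no sample, and for the same reason neither batch could be left out. Depth is unknown, so a missing position may be a nucleosome below the authors' threshold.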
